A study of Mus musculus with 9 samples.

Results

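The cytosolic ribosomal protein genes encode the proteins of the small and the large subunit of the ribosome that works in the cytoplasm. They were taken from the gene symbols: those that start with Rpl or Rps and a number, together with the stalk genes Rplp0, Rplp1 and Rplp2 and the small subunit gene Rpsa. Pseudogene symbols ending in -ps or -rs, the S6 kinase genes and 8 other symbols (the paralogues Rpl3l, Rpl7l1, Rpl10l, Rpl22l1, Rpl36al, Rpl39l and Rps27l, and Rps19bp1) were left out. The rule found 84 of the 46078 genes, 37 of the small subunit and 47 of the large subunit, and no measured value entered it. Transcript 3′ ends were sequenced in 9 libraries of C57BL/6J mice. The lymphoma group holds 6 libraries of MYCN-induced T cell lymphoma cells from the thymus (lymphomas 34, 53, 56, 70, 72 and 86), and the CD4 group holds 3 libraries of control CD4+ T cells from the spleen (CD4 1, 2 and 3). The promoter and the cell type in which MYCN was driven, the age of the mice and any treatment are not given in the sources used here. Tissue and group coincide, so that a difference between thymus and spleen and one between lymphoma and control cannot be told apart.

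Each ribosome carries a single copy of most of these proteins, bound to ribosomal RNA, and their synthesis takes up a large part of the translation of a growing cell. Their messenger RNAs commonly begin with a C followed by an uninterrupted run of pyrimidines, the terminal oligopyrimidine (TOP) tract, through which the TOR kinase pathway and the RNA-binding protein LARP1 adjust their translation and stability. Factors of the MYC family, to which MYCN belongs, are known to raise the transcription of genes for ribosome production. T cells that leave the resting state also make more ribosomes.

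Reads counted in genes numbered 11170704 to 15769679 per lymphoma library and 8099960 to 10808828 per CD4 library. The labels do not say whether the libraries came from separate animals, so p-values measure only the spread between these libraries. Lymphoma 53 stood apart: it was the highest or the lowest of the 6 lymphomas in 63.8% of the 15401 tested genes, against 22.6% to 33.7% for the other lymphomas. Lymphomas 34, 70 and 72 had the same leading T cell receptor beta segment, Trbv12-1, with 66 of 84, 45 of 73 and 47 of 87 of the counts in such segments. These lymphomas were also averaged into 1 library as an alternative. Lymphoma 53 had 9 such counts, 7 of them in Trbv26. Lymphomas 56 and 86 had 0, so the leading segment of lymphomas 56 and 86 is not known. The summed level of 11 T cell markers was 1549 to 2347 CPM (counts per 1000000 scaled gene counts) in lymphoma and 2482 to 2657 CPM in CD4. Tested with edgeR at a Benjamini-Hochberg adjusted p under 0.05, 24.7% of all tested genes were higher in lymphoma and 21.9% lower, and of the 11 T cell markers 1 was higher and 2 lower. The higher one was Zap70, a kinase of T cell receptor signalling, at 114 to 174 CPM in lymphoma against 72.02 to 82.1 CPM in CD4, and Cd4 fell the most, at 35.3 CPM ± 29.2 (SD, n = 6) against 240 CPM ± 35.4 (SD, n = 3). The 20 B cell markers summed to 362 to 638 CPM in lymphoma and 5294 to 6689 CPM in CD4, and all 20 were lower, Fcer2a the most, at 0 to 0.218 against 33.8 to 44.1 CPM. The 20 myeloid markers summed to 114 to 2416 against 1280 to 1542 CPM. The sums overlapped, but 8 of the 20 were lower and 0 higher, and Ctss fell the most, from 268 to 525 CPM in CD4 to 14.2 to 42.2 CPM in lymphoma. The erythroid markers (13 of 15 in the table) summed to 242 to 1084 against 153 to 405 CPM, and of the 10 tested 2 were higher and 0 lower, Hemgn the most, at 10.7 to 43.6 against 0 to 0.762 CPM. The 20 stromal and thymic epithelial markers summed to 106 to 184 against 221 to 241 CPM, but of the 9 tested 3 were higher and 2 lower, with a median log2 fold change of 0.98. Dcn rose the most of these, at 1.71 to 7.35 CPM in lymphoma and no count in CD4, and Kdr fell the most, at 0 to 0.436 against 1.47 to 5.39 CPM. Of the stromal markers, Cdh5, Lum and Ccl21a had no count in any lymphoma, and Ccl21a, Dcn, Foxn1, Krt5, Krt8 and Lum had none in any CD4 library. The 20 proliferation markers summed to 4295 to 5911 CPM in lymphoma and 492 to 638 CPM in CD4, and all 20 were higher, Ccnb1 the most, at 68.8 to 101 against 1.43 to 7.31 CPM. The part of these marker differences in the results on ribosomal protein genes was not tested.

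The 84 genes lie on 19 chromosomes of GRCm38, and 78 are annotated as protein coding. The 6 with a pseudogene biotype are Rps3a2, Rps3a3, Rps12l1, Rps12l2, Rps4l and Rpl37rt. A gene for a small nucleolar RNA, the class that guides the chemical modification of ribosomal RNA, lies inside 30 of the 84 genes (35.7%), against 277 of 21519 protein-coding genes (1.29%). Ribosomal protein genes also have many processed copies elsewhere in the genome, which bears on how their reads could be counted. At least one 50-base stretch of the last 300 transcript bases also occurs in the transcripts of another gene for 60 of the 84 (71.4%), against 14.1% of tested genes. For 44 of the 84, at least 50% of the stretches are shared. Reads that aligned to more than one place are not in the gene counts. These made up 16.1% to 18.6% of all lymphoma reads and 11.6% to 14.0% of all CD4 reads. Reads outside any annotated feature made up 16.6% to 22.5% of all lymphoma reads and 30.4% to 33.3% of all CD4 reads. The shares of all reads thus do not show whether genes lost a larger part of their reads in either group. Because multiply aligned reads are left out, levels of genes with such copies are uncertain. Levels, ratios and sums of genes are given below to compare libraries, not to say which of a pair of genes is the more abundant.

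Together the 84 genes took up a larger part of the gene counts in most lymphomas than in the control cells. Their summed share was 10.1% in lymphoma 72, the lowest, 11.6% at the median and 13.0% in lymphoma 53, the highest. It was 10.2% in CD4 1, 7.75% in CD4 2 and 9.90% in CD4 3. The groups overlapped, since lymphoma 72 lay below CD4 1, and the means were 11.6% ± 0.957 (SD, n = 6) and 9.29% ± 1.34 (SD, n = 3). In bulk samples fewer cells of a type and less RNA per cell cannot be told apart, and the share depends on the other genes: mitochondrial genes alone held 5.27% to 12.4% of lymphoma counts and 11.3% to 14.8% of CD4 counts.

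The summed counts of the 2 subunits were not in the same balance in both groups. Large subunit genes held 5.51% to 6.84% of the counts in lymphoma and 3.81% to 5.17% in CD4, without overlap, while small subunit genes held 4.61% to 6.20% and 3.94% to 5.04%, with overlap. The ratio of large to small subunit counts was 1.16 in lymphoma 34, 1.10 in lymphoma 53, 1.16 in lymphoma 56, 1.17 in lymphoma 70, 1.19 in lymphoma 72 and 1.21 in lymphoma 86. It was 1.03, 0.966 and 0.995 in CD4 1, 2 and 3. The ratio was therefore higher in every lymphoma (1.17 ± 0.0364, SD, n = 6) than in any CD4 library (0.996 ± 0.0302, SD, n = 3). It needs no scaling between libraries, and no test was made of it because it is a score over the genes chosen. Single small subunit genes weigh on the ratio. Of the summed counts, Rps24 held 2.17% to 3.74% in lymphoma and 4.21% to 6.12% in CD4. Rps27 held 0.598% to 0.985% and 1.67% to 2.23%. Rps26 went the other way, at 3.15% to 4.51% and 2.05% to 2.30%. The ratio without such genes was not computed.

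**Figure D1:**
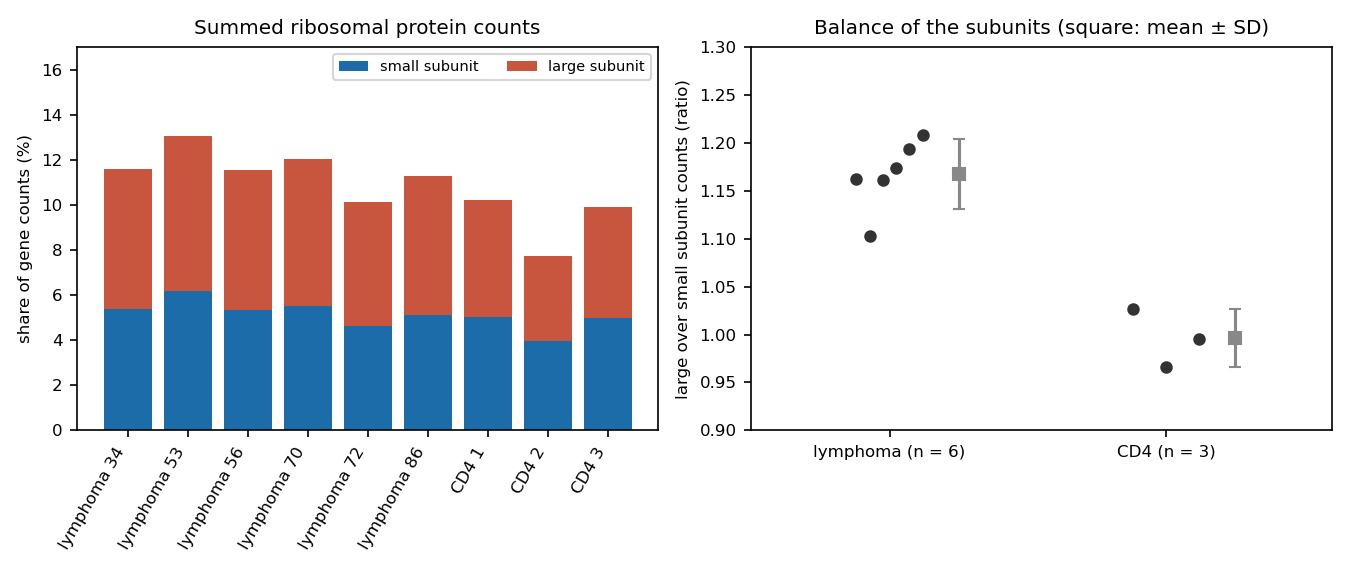
The left panel gives the share of all gene counts (percent) held by small and large subunit genes in each of the 9 libraries, stacked. The right panel gives the ratio of large to small subunit counts, with 1 point per library and squares for the mean ± SD; the 6 lymphomas lie between 1.10 and 1.21 and the 3 CD4 libraries between 0.966 and 1.03.

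Of the 84 genes, 83 passed the filter on low counts; the exception was Rps4l, whose counts were 0 to 8 in the lymphomas and 23, 1 and 18 in CD4 1, 2 and 3. With the quasi-likelihood method of edgeR and p-values adjusted over 15401 genes (Benjamini-Hochberg), 35 of the 83 were higher in lymphoma (42.2%), 2 were lower (2.41%) and 46 did not pass the threshold of 0.05. Among all tested genes 24.7% were called higher, 21.9% lower and 46.6% in either direction. The share of ribosomal protein genes called at all, 44.6%, was thus near the background, and the difference lay in the direction of the calls. The median log2 fold change was 0.44 over the 83 genes and 0.04 over all tested genes, and 72 of the 83 values were positive. Without CD4 2 the test called 16 higher and 3 lower, and 18 of the 37 calls remained. Of all 16017 genes tested without CD4 2, 3143 were higher and 2728 lower. The share of ribosomal protein genes called higher was then near the background, and the share called lower was below it. Without lymphoma 53 the test called 38 higher and 3 lower (all genes: 4207 and 3930 of 15174). With lymphomas 34, 70 and 72 averaged it called 33 higher and 2 lower (all genes: 3412 and 2877 of 14385). The additional lower gene, named after its values were seen, was Rps4l without CD4 2, since it then passed the filter, and Rps24 without lymphoma 53.

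Few of the changes reached 2-fold. In all, 6 of the 83 passed the threshold with a change of at least 2-fold, against 35.1% of all tested genes: Rps2, Rps26, Rplp0 and Rpl29 rose (background 17.9%), and Rps27 and Rps27rt fell (background 17.2%). The groups did not overlap in CPM for 30 of the 83 (background 44.9%), 28 with every lymphoma above every CD4 library (22.6%) and 2 with every lymphoma below (22.3%), and all 30 were among the 37 called. The small subunit had 13 higher and 2 lower calls among 36 genes, with a median log2 fold change of 0.41. The large subunit had 22 higher and 0 lower calls among 47 genes, with a median of 0.53. The 24 tested genes with no shared 50-base stretch held 13 higher and 0 lower calls at a median of 0.48, and the 44 with at least 50% of stretches shared held 20 higher and 2 lower at a median of 0.50. Between those, the 15 genes with a smaller shared part held 2 higher calls at a median of 0.18.

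**Figure D2:**
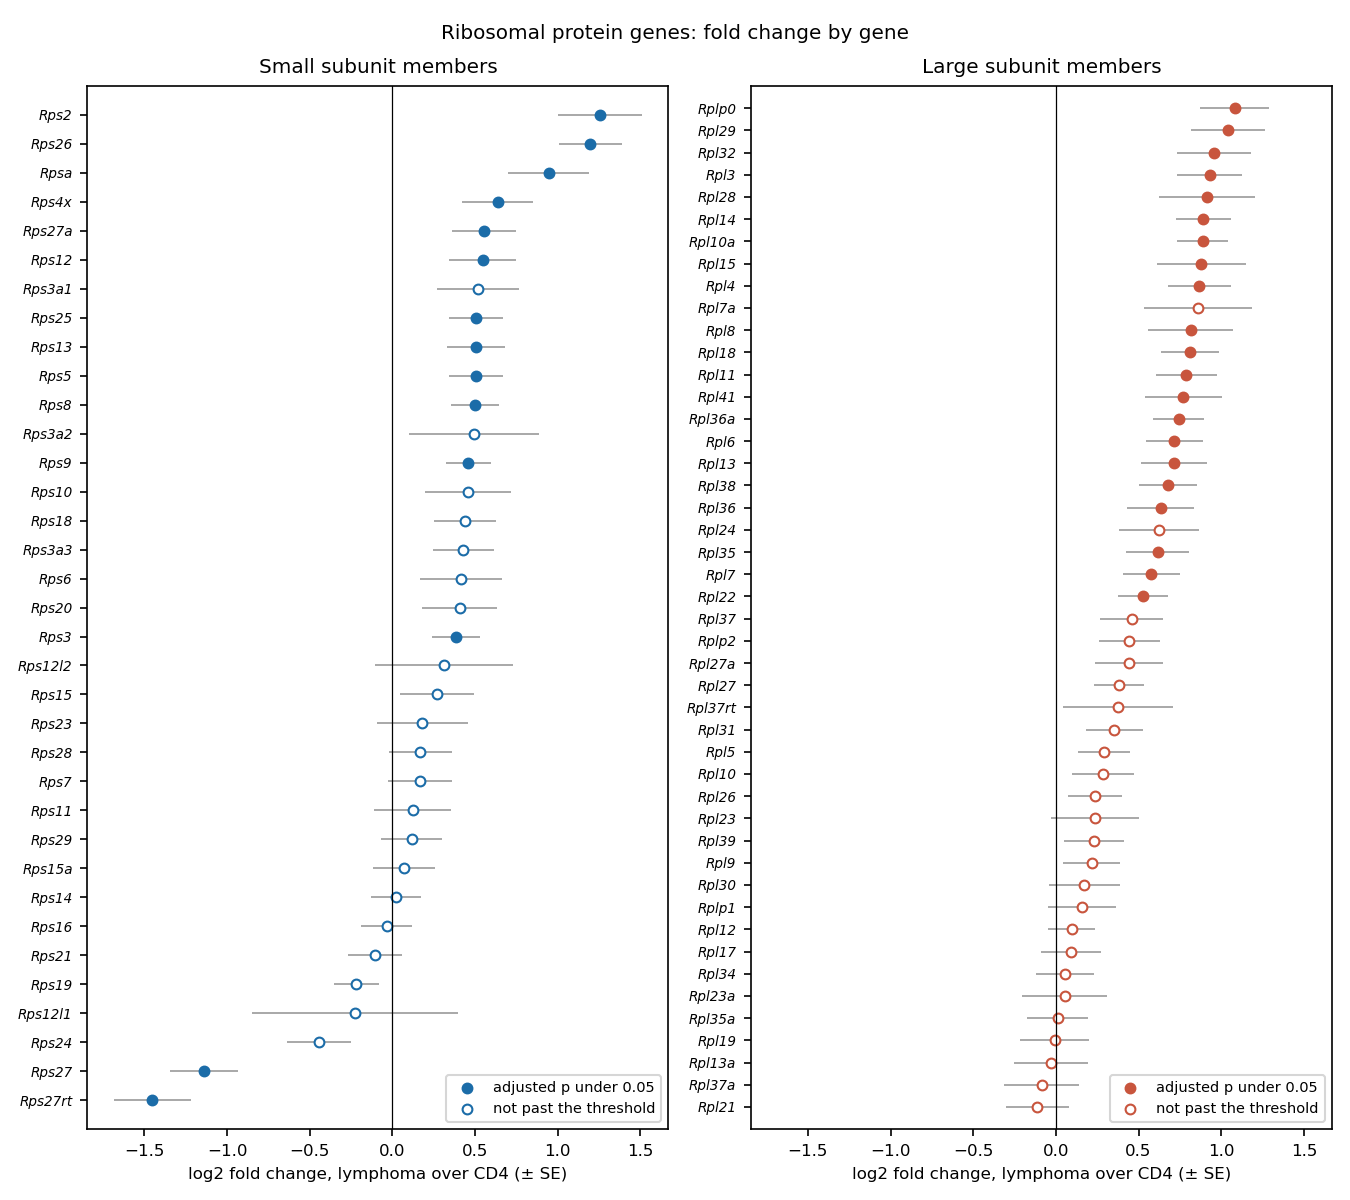
Each of the 81 points is the log2 fold change of a ribosomal protein gene, lymphoma over CD4, with its SE, sorted within the small (left) and the large (right) subunit; filled points passed the adjusted threshold of 0.05. Most points lie between 0 and 1, Rps2 and Rplp0 head the panels at 1.25 and 1.08, and Rps27 and Rps27rt lie alone at the low end at −1.14 and −1.45.

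Rps27 and its retrogene Rps27rt were the genes that fell. Rps27 (chr3:90212522-90213651, minus strand) encodes a zinc finger protein of the small subunit, and Rps27rt (chr9:114982366-114982739, minus strand) is a copy of it at another locus. The RefSeq transcription start of each lies at a TOP tract. The stretch around those starts is printed here with that of Rpl14, which rose, and of Rps6, which did not pass the test, since the tract occurs among genes that rose, fell or did not pass. Each sequence runs from 60 bases before the RefSeq start (GRCm38.p6) to 20 bases from it, on the strand of the gene. Capitals mark the C at the start and the pyrimidines that follow it without a break.
Rps27, chr3:90213629-90213708, minus strand: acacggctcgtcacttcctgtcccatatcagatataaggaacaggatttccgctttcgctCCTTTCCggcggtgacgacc
Rps27rt, chr9:114982720-114982799, minus strand: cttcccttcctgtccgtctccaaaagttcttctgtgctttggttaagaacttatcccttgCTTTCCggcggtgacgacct
Rpl14, chr9:120571457-120571536, plus strand: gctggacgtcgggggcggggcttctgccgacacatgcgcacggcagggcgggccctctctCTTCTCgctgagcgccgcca
Rps6, chr4:86857348-86857427, minus strand: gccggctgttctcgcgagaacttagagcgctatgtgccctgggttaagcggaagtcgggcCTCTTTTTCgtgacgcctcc
In the first 50 transcribed bases, Rps27 and Rps27rt share an unbroken run of 38 bases, which starts at base 2 of Rps27 and base 1 of Rps27rt. In the 250 bases before the start, their longest shared run is 10 bases.

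Rps27 stood at 644 CPM at the lowest, 793 at the median and 1144 at the highest of the lymphomas, and at 2241, 1258 and 2066 CPM in CD4 1, 2 and 3. All 6 lymphomas lay below all CD4 libraries, with lymphoma 70 the nearest to them. The log2 fold change was −1.14 (SE 0.207, Benjamini-Hochberg adjusted p 0.000837, edgeR). Rps27rt stood at 71.95, 117 and 124 CPM at the lowest, median and highest lymphoma, and at 179, 344 and 373 CPM in CD4 1, 2 and 3. Here too no lymphoma reached a CD4 library, and CD4 1, the highest for Rps27, was the lowest of its group. The log2 fold change of Rps27rt was −1.45 (SE 0.234, Benjamini-Hochberg adjusted p 0.000371, edgeR). Every 50-base stretch at the 3′ end of Rps27 also occurs in the transcripts of other genes, 9 in all, and 88.4% of those of Rps27rt, so the counts of both are uncertain and their split between the 2 loci cannot be checked from them. The part of multiply aligned reads, a larger share of all reads but not shown to be one of gene reads in lymphoma, in these falls was not tested.

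The paralogue Rps27l, a gene of its own whose expression responds to p53, moved in the other direction. It stood at 232, 348 and 377 CPM at the lowest, median and highest lymphoma, and at 90.2, 67.5 and 67.0 CPM in CD4 1, 2 and 3. Every lymphoma was above every CD4 library, and its log2 fold change was 2.13 (SE 0.210, Benjamini-Hochberg adjusted p 1.05e-05, edgeR). Counts of Rps27l amounted to 29.9% to 48.8% of those of Rps27 in the lymphomas and to 3.24% to 5.37% in the CD4 libraries, a 9.42-fold higher mean ratio in lymphoma (log2 difference 3.24, n = 6 and 3). The exact two-sided permutation test of this ratio gave p = 0.0238, the smallest that 6 against 3 libraries can give, and adjusted over 6 paralogue pairs (Benjamini-Hochberg) p was 0.143. With shared 3′ ends in Rps27 and no correction for length, the ratio sets libraries side by side and not the levels of the genes. The summed level of the 3 genes was 976 to 1609 CPM in lymphoma and 1669 to 2510 CPM in CD4, so the sum was lower in every lymphoma than in any CD4 library.

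**Figure D3:**
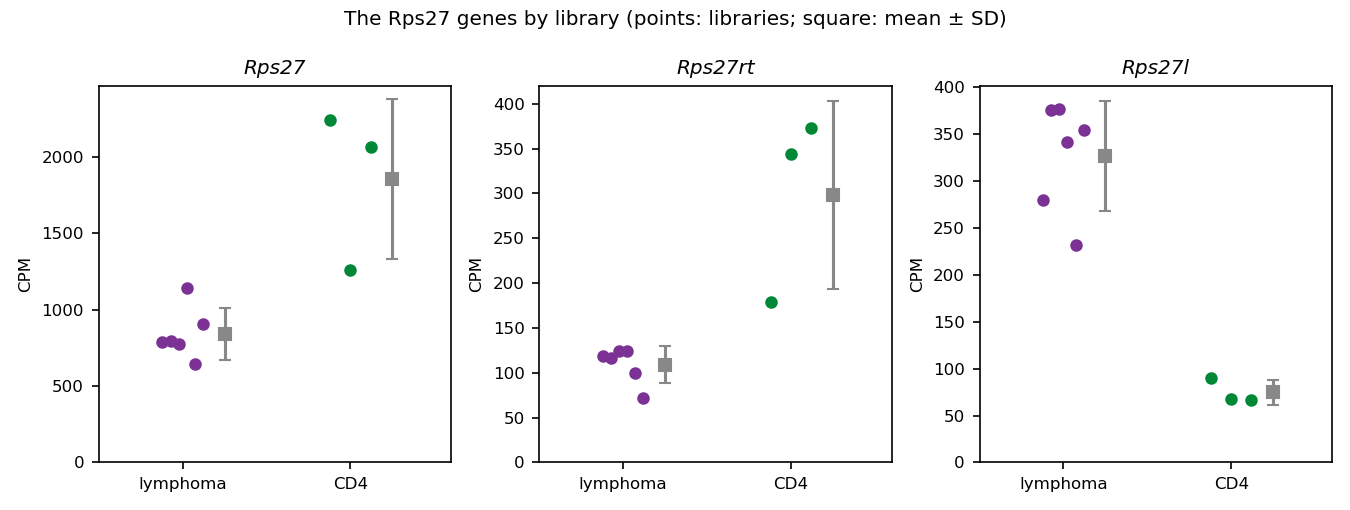
Levels of Rps27, Rps27rt and the paralogue Rps27l in CPM, each panel on its own axis from 0, with 1 point per library (6 lymphoma, 3 CD4) and squares for the mean ± SD. Rps27 and Rps27rt lie lower in every lymphoma than in any CD4 library, and Rps27l lies higher, at 232 to 377 against 67.0 to 90.2 CPM.

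Among small subunit genes, Rps2, Rps26 and Rpsa had the largest rises. Rps2 (chr17:24718116-24721929) encodes a protein near the channel through which the messenger RNA enters. Its levels were 861, 1250 and 1688 CPM at the lowest, median and highest lymphoma, and 720, 354 and 483 CPM in CD4 1, 2 and 3. Every lymphoma lay above CD4 1, the highest control, and the log2 fold change was 1.25 (SE 0.255, Benjamini-Hochberg adjusted p 0.00176, edgeR). Of the stretches at its 3′ end 78.1% also occur in the transcripts of other genes, 51 in all, so its level is uncertain.

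Rps26 (chr10:128624534-128626747) encodes a protein near the exit of the messenger RNA and is among the genes mutated in Diamond-Blackfan anaemia, an inherited failure of red cell production. It stood at 3658, 4685 and 5990 CPM at the lowest, median and highest lymphoma, against 2308, 1704 and 2013 CPM in CD4 1, 2 and 3. No library of one group reached the other, and the log2 fold change was 1.20 (SE 0.190, Benjamini-Hochberg adjusted p 0.000335, edgeR). Of the stretches at the 3′ end of Rps26 62.5% also occur in the transcripts of other genes. Rpsa, known also as the laminin receptor precursor, has no 3′ stretch in common with another gene. It stood at 1029, 1070 and 1950 CPM at the lowest, median and highest lymphoma and at 791, 478 and 680 CPM in CD4 1, 2 and 3. Lymphoma 53 was far above the other 5, which ended at 1351 CPM, and the groups did not overlap (log2 fold change 0.95, SE 0.245, Benjamini-Hochberg adjusted p 0.00757, edgeR).

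Of the other small subunit genes on the fixed list (Rps6, Rps14, Rps19 and Rps25), Rps25 passed the test. Rps25, needed for translation from several viral internal entry sites, stood at 1173, 1447 and 1911 CPM at the lowest, median and highest lymphoma and at 1043, 985 and 1116 CPM in CD4 1, 2 and 3. The groups did not overlap, and the log2 fold change was 0.51 (SE 0.163, Benjamini-Hochberg adjusted p 0.0231, edgeR). That call was lost without CD4 2 (adjusted p 0.0791), with upper quartile scaling (0.0505) and with GC and length trends removed (0.0628). Rps6, the substrate of the S6 kinases, had a log2 fold change of 0.41 (SE 0.249), with lymphomas at 59.0 to 91.5 CPM and CD4 libraries at 74.1, 33.1 and 59.7 CPM. Rps14, whose loss underlies the anaemia of the 5q− syndrome, had 0.02 (SE 0.149), with lymphomas at 3097 to 3982 CPM inside the span of the CD4 libraries, 4256, 3024 and 3203 CPM. Rps19, the gene most often mutated in Diamond-Blackfan anaemia, had −0.22 (SE 0.136), at 1469 to 1853 against 1986, 1659 and 2120 CPM. Adjusted p-values of Rps6, Rps14 and Rps19 were 0.196, 0.915 and 0.215 by edgeR with Benjamini-Hochberg adjustment, and the groups overlapped for each.

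In the large subunit the largest rise was that of Rplp0 (chr5:115559467-115563727), the protein at the base of the stalk that binds elongation factors. Its levels were 1505, 1902 and 2541 CPM at the lowest, median and highest lymphoma, and 1187, 702 and 847 CPM in CD4 1, 2 and 3. The groups did not overlap, and the log2 fold change was 1.08 (SE 0.210, Benjamini-Hochberg adjusted p 0.00131, edgeR). Rplp1 and Rplp2 encode the acidic proteins that form the stalk on this base. Rplp1 had a log2 fold change of 0.16 (SE 0.208, Benjamini-Hochberg adjusted p 0.570, edgeR), with lymphomas at 1530 to 3126 CPM around the CD4 libraries at 1944, 1634 and 2094 CPM. Rplp2 had 0.44 (SE 0.185, Benjamini-Hochberg adjusted p 0.0683, edgeR), with lymphomas at 2649 to 4037 CPM and CD4 libraries at 2703, 1804 and 2351 CPM. Both genes overlapped between the groups; Rplp2 passed the threshold without lymphoma 70 (adjusted p 0.0396) or without CD4 1 (0.0363).

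Rpl29, also described as a heparin-binding protein of the cell surface, rose with a log2 fold change of 1.04 (SE 0.225, Benjamini-Hochberg adjusted p 0.00254, edgeR). It stood at 118, 139 and 188 CPM at the lowest, median and highest lymphoma and at 93.3, 53.2 and 64.7 CPM in CD4 1, 2 and 3, without overlap. With GC and length trends removed its log2 fold change was 0.57 and stayed past the threshold. Rpl32, another large subunit protein, rose by a log2 fold change of 0.96 (SE 0.224), at 2957 to 5630 CPM in lymphoma against 1736, 1811 and 2477 CPM in CD4 1, 2 and 3. Rpl14, whose start is among the sequences printed, rose by 0.89 (SE 0.166), at 1432 to 2245 CPM against 900, 869 and 1035 CPM. Rpl3, which reaches toward the peptidyl transferase centre, rose by a log2 fold change of 0.93 (SE 0.195), at 475 to 653 CPM in lymphoma against 381, 211 and 286 CPM. Rpl10a, the protein of the mobile stalk beside the exit site for transfer RNA, rose by 0.89 (SE 0.155), at 1029 to 1359 CPM against 780, 566 and 627 CPM. For Rpl32, Rpl14, Rpl3 and Rpl10a the groups did not overlap, and adjusted p-values lay between 0.000639 and 0.00417 (edgeR, Benjamini-Hochberg). The shared part of their 3′ stretches was 26.7%, 0%, 76.5% and 87.3% in that order, and 51.8% for Rpl29. Rpl28 had a log2 fold change of 0.92 (SE 0.290, Benjamini-Hochberg adjusted p 0.0219, edgeR), but lymphoma 70 at 451 CPM lay below CD4 1 at 579 CPM. Its call was lost without CD4 2 (adjusted p 0.103) or without CD4 3 (0.0905).

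Rpl5 and Rpl11 bind the 5S ribosomal RNA, and when ribosome assembly fails their complex holds back MDM2, which lets p53 accumulate. Rpl11 stood at 1070, 1311 and 1856 CPM at the lowest, median and highest lymphoma and at 817, 666 and 880 CPM in CD4 1, 2 and 3. The groups did not overlap, and the log2 fold change was 0.79 (SE 0.184, Benjamini-Hochberg adjusted p 0.00423, edgeR). Rpl5 had 0.29 (SE 0.156, Benjamini-Hochberg adjusted p 0.149, edgeR), with lymphomas at 1634 to 2024 CPM and CD4 1, 2 and 3 at 1773, 1164 and 1432 CPM, in overlap. Rpl5 passed the threshold with GC and length trends removed (log2 fold change 0.56, adjusted p 0.0223) and without CD4 1 (0.0352). Of the 8 genes listed for this complex and p53, Rpl11 was the one called higher and Mdm4, an inhibitor of p53, the one called lower. Mdm4 had a log2 fold change of −0.92 (SE 0.166), from 329 to 423 CPM in CD4 to 153 to 234 CPM in lymphoma. The largest log2 fold change of the list, 1.18, did not pass the threshold. The 2 called of 8 are a smaller share than the 46.6% of all tested genes called in either direction.

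Other large subunit genes on the fixed list are known from lymphoid disease or development. Rpl22, which developing alpha-beta T cells need and which is deleted in some T cell leukaemias, stood at 1272, 1574 and 1724 CPM at the lowest, median and highest lymphoma and at 1094, 944 and 1180 CPM in CD4 1, 2 and 3. All lymphomas were above all CD4 libraries, with a log2 fold change of 0.53 (SE 0.150, Benjamini-Hochberg adjusted p 0.0126, edgeR), and the call was lost without CD4 2 (adjusted p 0.0617). Rpl10, mutated in some T cell acute leukaemias, had 0.29 (SE 0.186), at 354 to 569 CPM in lymphoma and 461, 297 and 386 CPM in CD4 1, 2 and 3. The groups overlapped and the adjusted p was 0.231 (edgeR, Benjamini-Hochberg). Rpl38, which the mouse embryo needs to translate a set of Hox messenger RNAs, rose by a log2 fold change of 0.68 (SE 0.175, Benjamini-Hochberg adjusted p 0.00747, edgeR). It stood at 1731 to 2698 CPM in lymphoma and at 1434, 1196 and 1720 CPM in CD4, where lymphoma 72 only just cleared CD4 3. With GC and length trends removed the value for Rpl38 was 0.26 and no longer passed (adjusted p 0.203).

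The other 21 genes that rose, 9 of the small and 12 of the large subunit, had log2 fold changes of 0.38 to 0.88 with a median of 0.63, and the groups did not overlap for 15 of them. Of the 5 that kept their call under all 20 alternatives, 4 are named here, after their values were seen: Rpl4 (0.87, SE 0.191), Rpl18 (0.81, SE 0.174), Rpl36a (0.74, SE 0.152) and Rpl6 (0.72, SE 0.174). Of the 3′ stretches 81.3% are shared for Rpl18, 100% for Rpl36a and 0% for Rpl6, and no alternative recovers multiply aligned reads. Rpl4, whose long loop lines the tunnel of the growing peptide, has no shared 3′ stretch and stood at 2610, 3723 and 4299 CPM at the lowest, median and highest lymphoma and at 2277, 1562 and 2201 CPM in CD4 1, 2 and 3. The groups were apart for Rpl4, with lymphoma 53 the nearest to the controls. At the other end of the 21, Rps3 (0.38, SE 0.146) kept its call in 8 of 20 alternatives.

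The remaining 39 genes that did not pass, 18 of the small and 21 of the large subunit, had log2 fold changes of −0.45 to 0.86 with a median of 0.18, and the groups overlapped for all 39. Their ends, named after the values were seen, were Rps24 and Rpl7a. Rps24, a further gene of Diamond-Blackfan anaemia, had −0.45 (SE 0.194), with lymphomas at 2638, 3306 and 4970 CPM at the lowest, median and highest and CD4 1, 2 and 3 at 4223, 4604 and 5463 CPM. Lymphoma 53 was the only lymphoma inside the span of the controls, and without it Rps24 passed the threshold (Benjamini-Hochberg adjusted p 0.00462, edgeR). In all, Rps24 passed in 5 of 20 alternatives. Among them, with all libraries kept, were upper quartile scaling (edgeR adjusted p 0.0305) and DESeq2 (adjusted p 0.0425). Rpl7a had 0.86 (SE 0.329, Benjamini-Hochberg adjusted p 0.0501, edgeR), with 242, 499 and 750 CPM at the lowest, median and highest lymphoma and 391, 171 and 257 CPM in CD4 1, 2 and 3, where lymphoma 53 was again the one inside the span of the controls. Rpl7a passed in 4 of 20 alternatives, with the lowest adjusted p without lymphoma 53 (0.00660, edgeR, Benjamini-Hochberg). The 5 tested genes with a pseudogene biotype had log2 fold changes of −0.23 to 0.49, and none passed the threshold.

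Libraries of one group also differed among themselves over these genes. CD4 2 had the lowest CPM of the 3 CD4 libraries in 71 of 83 genes, against 32.7% of all tested genes. CD4 1 was the highest in 47 and the lowest in 9, where it was the lowest in 38.6% of all tested genes. CD4 2 also had the fewest gene counts of the 9 libraries (8099960) and the lowest share of reads in genes (27.8%). Its shares of unaligned reads (22.7%) and of mitochondrial counts (14.8%) were the highest of the 9. The part of these library differences in the calls was not tested. Lymphoma 72 was the lowest of the 6 lymphomas in 45 genes and the highest in 0 (54.2% at either end, against 27.7% of all tested genes). Lymphoma 86 was the highest in 25 and the lowest in 6 (37.3% at either end, near the 33.7% of all tested genes). Lymphoma 53 was above the other 5 in 37 genes (44.6%, against 30.5% of all tested genes) and below them in 19 (22.9%, against 31.2%). The genes at the ends of this last order, chosen after their values were seen, did not move as a block. Rpl8 at 3988 CPM, Rps10 at 2077 CPM and Rps20 at 4790 CPM in lymphoma 53 lay above the other lymphomas, which ended at 2145, 1165 and 3081 CPM. Rpl7a at 242 CPM, Rps23 at 476 CPM and Rpl23 at 893 CPM lay below the others, which started at 451, 833 and 1670 CPM. The median SD over the 83 genes was 0.25 log2 units within lymphoma and 0.31 within CD4, against 0.47 and 0.36 over all tested genes. All tested genes were not matched to the 83 in level, so these SDs do not compare genes of like counts.

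**Figure D4:**
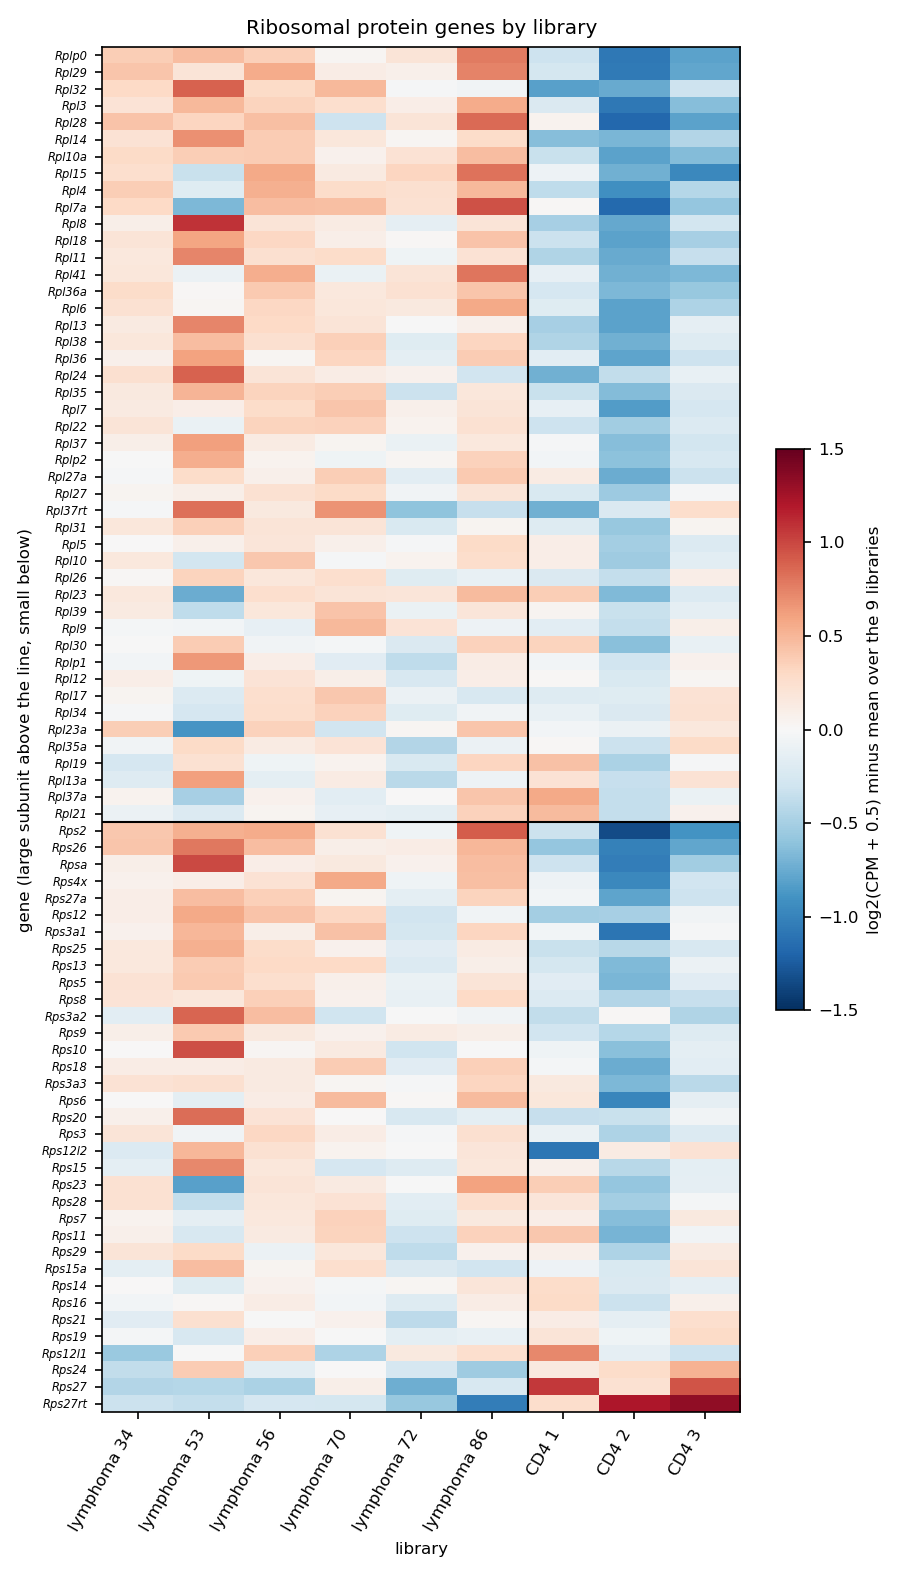
Each of the 81 rows is a ribosomal protein gene and each column a library; colour gives log2(CPM + 0.5) minus the mean of the gene over the 9 libraries, with large subunit genes above the horizontal line and the CD4 libraries right of the vertical line. CD4 2 is blue in most rows, lymphoma 53 holds both the reddest and some of the bluest cells among the lymphomas, and Rps27 and Rps27rt at the bottom run against the other rows.

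The promoters of these genes were searched for 5 sequence features in the RefSeq windows from 250 bases before to 50 bases after the transcription start, of which 69 windows of 59 of the genes were matched. A C followed by at least 4 pyrimidines exactly at the annotated start was present in 14 of the 69 windows (20.3%), against 2.51% of 32851 windows of all genes. Such a run beginning within 10 bases of that start on either side was present in 37 (53.6%, against 30.7%). The letters CCGGAAG on either strand, the core of the sites bound by ETS factors such as GABP, were present in 25 (36.2%, against 8.86%). CACGTG, the E-box that MYC and MYCN bind and which reads the same on both strands, was present in 8 (11.6%, against 7.15%). AAGATGGC on either strand, the core of the YY1 site, was present in 7 (10.1%, against 2.75%), and TATAAA on either strand in 6 (8.70%, against 13.6%). By gene, the pyrimidine start occurred in 14 of 59 (23.7%, against 3.01% of 27025 genes): 5 of 24 that rose, 2 of 2 that fell and 7 of 33 that did not pass. CCGGAAG occurred in 24 of 59 genes (40.7%, against 9.93%): 10 of 24, 0 of 2 and 14 of 33. CACGTG occurred in 6 of 59 genes (10.2%), near the 8.09% of all genes: 1 of 24 that rose, 0 of 2 that fell and 5 of 33 that did not pass. These are matches of letters in fixed windows, and the start annotated for a gene may lie some bases from the one used in these cells.

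The ratio was tested for 6 paralogue pairs, and 1, Rps27l over Rps27, had an unadjusted exact permutation p under 0.05. That pair had the smallest p the design allows and still an adjusted p of 0.143, so the count of 0 pairs past the adjusted threshold says nothing about the ratios. Rpl7l1 rose with a log2 fold change of 1.23 (SE 0.286, Benjamini-Hochberg adjusted p 0.00413, edgeR), at 61.9 to 149 CPM in lymphoma against 30.3 to 45.5 CPM in CD4. Its counts were 9.38% to 24.4% of those of Rpl7 in lymphoma and 8.74% to 9.54% in CD4 (exact permutation p 0.0714, adjusted 0.143). Rpl22l1, which Rpl22 is known to repress in the mouse, had a log2 fold change of 0.11 (SE 0.255) and counts of 1.25% to 2.62% of Rpl22 in lymphoma and 2.47% to 2.67% in CD4 (exact permutation p 0.0714, adjusted 0.143). Rpl36al had 0.55 (SE 0.223, Benjamini-Hochberg adjusted p 0.0630, edgeR), and it passed with lymphomas 34, 70 and 72 averaged (0.0469), without lymphoma 70 (0.0305) and without CD4 1 (0.0169). Its ratio to Rpl36a overlapped between the groups. Rpl3l, the heart and muscle form of Rpl3, and Rpl39l, a form of the testis, stayed at or below 1.22 and 1.28 CPM in every library, and Rpl10l, also of the testis, had no count in any.

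In 3 of the 7 other lists of translation genes, those of TOP transcripts, of assembly factors and of mitochondrial ribosomal proteins, most tested genes were higher in lymphoma. Among ribosomal proteins with names of another form, Gnb2l1, the scaffold protein RACK1, rose (log2 fold change 0.90, SE 0.159). Fau, whose protein is cut into a ubiquitin-like part and a ribosomal protein, had −0.34 (SE 0.184) and did not pass. A further list held 19 other transcripts known to carry a TOP tract, chiefly of elongation and initiation factors. Of these, 16 were higher (84.2%, against 24.7% of all tested genes) and 0 lower (against 21.9%), with a median log2 fold change of 1.02. Npm1, a nucleolar chaperone of ribosome assembly, rose the most of these, by 2.39 (SE 0.254), from 325 to 448 CPM in CD4 to 1491 to 3002 CPM in lymphoma. The list was compiled from general knowledge and shares Npm1 with the next.

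Of 34 tested factors of ribosome assembly and export, 28 were higher (82.4%, against the same 24.7%) and 0 lower, at a median of 1.46, led by the nucleolar protein Nop16 at 2.59 (SE 0.312). Of 75 tested mitochondrial ribosomal proteins, which serve the separate ribosome of the mitochondrion, 69 were higher (92.0%) and 0 lower at a median of 1.23, with Mrpl12 the highest at 2.47 (SE 0.324). Among 16 regulators of the TOR pathway and of TOP messenger RNAs, 6 were higher and 1 lower at a median of 0.41, and the share called in either direction, 43.8%, was near the 46.6% of all tested genes. Eif4ebp1, the translation repressor that TOR inactivates, rose by 2.97 (SE 0.520), from 2.02 to 9.81 CPM in CD4 to 26.5 to 65.0 CPM in lymphoma, and Tsc1, part of the complex that restrains TOR, fell by 0.67 on the log2 scale (SE 0.173), a call lost with GC and length trends removed (edgeR adjusted p 0.0579). Larp1, named after its value was seen, had 1.15 (SE 0.158). The median of the cytosolic ribosomal protein genes, 0.44, lay below those of the assembly, mitochondrial and other TOP lists, and no test compared the lists.

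**Figure D5:**
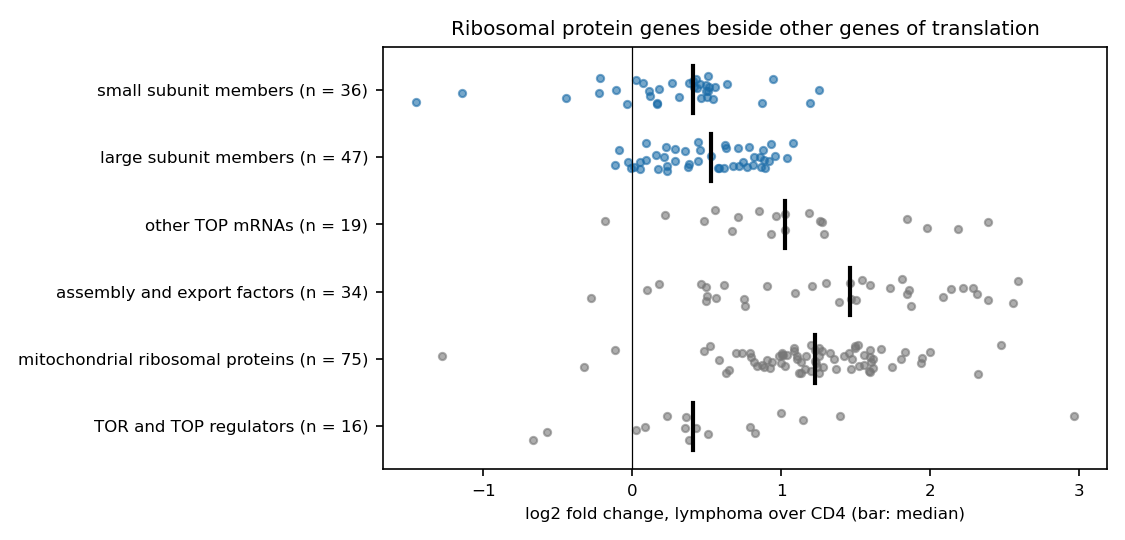
Log2 fold changes, lymphoma over CD4, of small and large subunit genes and of 4 other lists of translation, with 1 point per tested gene and a bar at the median of each list. The subunit lists have medians of 0.41 and 0.53, the TOP, assembly and mitochondrial lists 1.02, 1.46 and 1.23, and the TOR list 0.41.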

How the data were processed

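Transcript 3′ ends were sequenced in 6 lymphoma and 3 CD4 libraries. The authors deposited raw counts per gene, per the file headers. The submitters' processing notes name FastQC, HISAT2, SAMtools and HTSeq with the builds mm10 and GRCm38; versions, annotation and strand setting are not given in the sources used here, so overlapping genes cannot be told apart. Reads in genes were 38.7% to 49.1% of all reads in lymphoma and 27.8% to 35.0% in CD4, and the rest, in 5 summary rows that name no gene, stayed out of library sizes and tests. Columns that matched no sample numbered 0.

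Genes were filtered with filterByExpr (minimum count 10), scaled with TMM and tested with edgeR 4.0.16 in R 4.3.3 (glmQLFit, robust, and glmQLFTest, no covariate), with Benjamini-Hochberg adjustment and a threshold of 0.05. SE is the absolute log2 fold change over the square root of F, and CPM is per 1000000 TMM-scaled counts. Paralogue ratios (pseudocount 0.5 on both counts) were compared over all 84 assignments of the libraries (scipy 1.17.1). Alternatives used DESeq2 1.42.0 and limma 3.58.1, other scalings and filters, GC and length offsets, pseudogene counts added to their parent, and each library left out. Biotypes and positions come from GENCODE M21 (GRCm38), matched for all 84 genes, and promoter windows from RefSeq (GRCm38.p6). Members and lists were chosen with earlier results of these data known. Named are the 10 largest rises and falls past the threshold, 13 fixed genes, the paralogues and the largest rise and fall past the threshold of each other list; other names were chosen after their values were seen. A few genes are not reported here by name and are left out of the plots that label genes, but stay in the counts and fits.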

Additional observations from a re-analysis of the deposited data

How the results depend on the processing

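No paired analysis was possible because the groups share no replicate number. Of the 37 called ribosomal protein genes, 17 were called under each of 20 alternative scalings, filters, tools, count definitions and left-out libraries, and none changed sign in any of them. At an adjusted p under 0.01, 18 were called, 16 of them higher, against 4915 of all 15401 tested genes, 2595 of them higher. Leaving out 1 library gave 19 to 41 calls in all, 16 to 39 higher and 2 or 3 lower, with 19 calls (16 higher) without CD4 2. The same fits called 3143 to 4207 of all tested genes higher and 2728 to 3930 lower, with 3143 of 16017 higher without CD4 2. The medians then ranged from 0.31 to 0.52 over all tested ribosomal protein genes, 0.26 to 0.47 over the small subunit and 0.38 to 0.63 over the large, and the lowest values, 0.31, 0.26 and 0.38, were those without CD4 2. Without mitochondrial genes in the total, the mean summed share was 12.9% ± 0.846 (SD, n = 6) in lymphoma and 10.6% ± 1.35 (SD, n = 3) in CD4. The groups still overlapped, with lymphoma 72 at 11.3% and CD4 1 at 11.6%. Upper quartile scaling moved the median of all tested genes from 0.04 to −0.06 and that of the ribosomal protein genes to 0.34. With that scaling 28 were called higher and 3 lower, against 3414 and 3707 of all 15401 tested genes. With GC and length trends removed, 27 were higher and 2 lower. Of all 15329 genes in that setting 4056 were higher and 2960 lower, at a median of 0.13. The cause of these shifts was not tested. Paralogue pairs past the adjusted threshold numbered 0 under every alternative run, which says nothing about stability: the smallest exact p is 0.0238 with all libraries, 0.0357 without a lymphoma, 0.0571 with lymphomas 34, 70 and 72 averaged and 0.0714 without a CD4 library, before adjustment over 6 pairs. Depth leaves the values of Rps12l1, Rps12l2 and Rps3a2, at 10.4 CPM or less in every library, imprecise, and shared transcript ends leave those of 60 of the 84 genes uncertain.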
